A study of Mus musculus with 24 samples.

Results

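The 10 integrin genes described here, Itgal, Itgam, Itgax, Itgb2, Itgb3, Itgav, Itga4, Itgb1, Itgb7 and Itga6, were taken by gene name from a table of 53715 genes measured by RNA sequencing in blood monocytes of C57BL/6 mice aged 8 to 10 weeks. All 10 were in the table, each once, and all 10 were among the 11230 genes that reached a normalized count of at least 50 in at least 1 library. Wild type (wt) mice were compared with N2ΔMy mice, in which a floxed Notch2 gene is deleted by Cre driven from the Lyz2 gene of myeloid cells; Cx3cr1-GFP reporter fluorescence was part of the sort. Mice received 50 mg Aldara cream with 5% imiquimod (IMQ), an agonist of the RNA sensor TLR7, or Sham cream (Vaseline) on depilated skin each day, and blood was taken on day 5 (the study's RNA methods call the controls of the sort untreated, while its results and the labels call them Sham). There were 6 groups of 4 libraries: Ly6Chi monocytes of Sham-treated wt mice, of Sham-treated N2ΔMy mice, of IMQ-treated wt mice and of IMQ-treated N2ΔMy mice, and Ly6Clo monocytes of IMQ-treated wt and N2ΔMy mice. Ly6Clo monocytes of Sham-treated mice were not analysed here. The labels number the libraries 1 to 4 in each group without naming the animals, so the p-values measure the spread between these libraries.

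Integrins are receptors made of an alpha and a beta subunit that hold cells to other cells and to matrix, and they switch between a bent, resting state and an extended state that binds ligand when talin and kindlin grip the beta tail. The beta 2 subunit (Itgb2, CD18) marks the leukocyte integrins: with Itgal (CD11a) it forms LFA-1, which binds ICAM-1 on endothelium, with Itgam (CD11b) Mac-1, which also binds complement fragments, and with Itgax (CD11c) a related complement receptor. Itga4 pairs with Itgb1 as VLA-4, which binds VCAM-1 and fibronectin, or with Itgb7 as the gut-homing receptor for MAdCAM-1. Itgav and Itgb3 form the vitronectin receptor, and Itga6 with Itgb1 binds laminin. Ly6Chi monocytes are the classical cells that enter inflamed tissue, and Ly6Clo monocytes crawl along the vessel wall, a behaviour in which LFA-1 is known to take part.

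The cells were sorted as Lin- CD11b+ GFP+ CD115+ MHC-II- cells, Ly6Chi CD43- or Ly6Clo, so every value of Itgam is from cells chosen for its protein. The libraries separated by subset label: the summed normalized count of 6 markers of Ly6Chi monocytes was 57691 to 98323 in the Ly6Chi libraries and 1903 to 13906 in the Ly6Clo libraries. These markers include Ly6c2, a gene of the sort antigen, so part of this separation was built in. Among the Ly6Clo libraries the sum was 1903 to 4227 in wt and 9395 to 13906 in N2ΔMy cells. Notch2 itself was at 12656 to 20005 in the wt libraries and at 7240 to 11518 in the N2ΔMy libraries, lower in each N2ΔMy group than in its wt match. The read totals inferred from the values were 9524061 to 19763898 per library, with a lower range in replicates 3 and 4 (the second library series, by library number) than in replicates 1 and 2 (the first series). Lymphoid markers were scarce: the summed counts were 0 to 29 for 8 T cell genes, 0 to 61 for 6 NK cell genes and 56 to 178 for 8 B cell genes, while red cell genes reached 753 to 1543 in replicate 4 of the 4 IMQ groups. Markers of myeloid neighbours were not: over all libraries the sums were 704 to 33983 for dendritic cell, 2375 to 12063 for macrophage and 36 to 8605 for neutrophil markers. Single genes weighed heavily in the first 2 sums. Cd74 had the highest value of the dendritic cell list in every group (up to 18001). Adgre1 had the highest of the macrophage list in every IMQ group (up to 10202). In bulk RNA of sorted cells, fewer cells of a type and less RNA per cell cannot be told apart.

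Itgam and Itgax lie next to each other on chromosome 7 (GRCm38.p6) on the plus strand, at 128062640 to 128118491 and at 128129547 to 128150657, and encode alternative partners of Itgb2, yet they are the members with the least and the most different level between the wt subsets. The bases before their starts are shown for that reason, from RefSeq on GRCm38.p6, with matches to GAGGAA, a core that PU.1, the master factor of myeloid cells, can bind, in capitals on either strand (TTCCTC on the other). The stretch chr7:128062390-128062639 belongs to Itgam and chr7:128129300-128129546 to Itgax.
Itgam: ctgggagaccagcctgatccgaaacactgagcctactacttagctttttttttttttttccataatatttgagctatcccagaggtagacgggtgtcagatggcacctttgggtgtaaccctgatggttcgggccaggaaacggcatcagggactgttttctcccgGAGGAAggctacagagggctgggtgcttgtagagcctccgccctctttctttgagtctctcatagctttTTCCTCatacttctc
Itgax: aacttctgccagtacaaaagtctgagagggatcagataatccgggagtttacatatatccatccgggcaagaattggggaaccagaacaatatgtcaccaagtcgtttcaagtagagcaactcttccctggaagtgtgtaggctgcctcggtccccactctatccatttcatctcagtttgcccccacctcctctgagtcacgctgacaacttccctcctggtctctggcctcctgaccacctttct
GAGGAA stood 2 times in the Itgam stretch and not in the Itgax stretch, and TGGGAA, a core that the Notch partner RBPJ can bind, was in neither. Of all 32851 RefSeq promoters, 23.3% held GAGGAA and 21.6% held TGGGAA in the 250 bases before the start. The RefSeq table held promoters of 6 of the 10 members, and among those Itgav held GAGGAA 2 times, Itgb1 held it 1 time, and Itga4 and Itgb7 did not.

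Per kilobase of gene length, the scale on which genes can be compared, Itgb2 was the highest member in every group, at 18823 ± 2378 (SD, n = 4) in wt Ly6Clo cells and 6041 ± 242 in Ly6Chi cells of Sham-treated wt mice. Itgal, Itga4, Itgb7 and Itgb1 followed in wt Ly6Chi cells of Sham-treated mice, at 1946 to 1013. In the same cells Itgam was at 663, Itgav at 203, Itgb3 at 86.0 and Itgax at 22.5. Itga6 was the lowest there at 5.54, close to the filter, and its values are few reads. In an F-test of limma over the 6 groups, 10 of 10 members were called at an adjusted p of at most 0.01, against 43% of all genes. By that p, Itgal ranked 53 of 11230 genes, Itgax 75, Itgb2 145 and Itgb3 174.

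**Figure D1:**
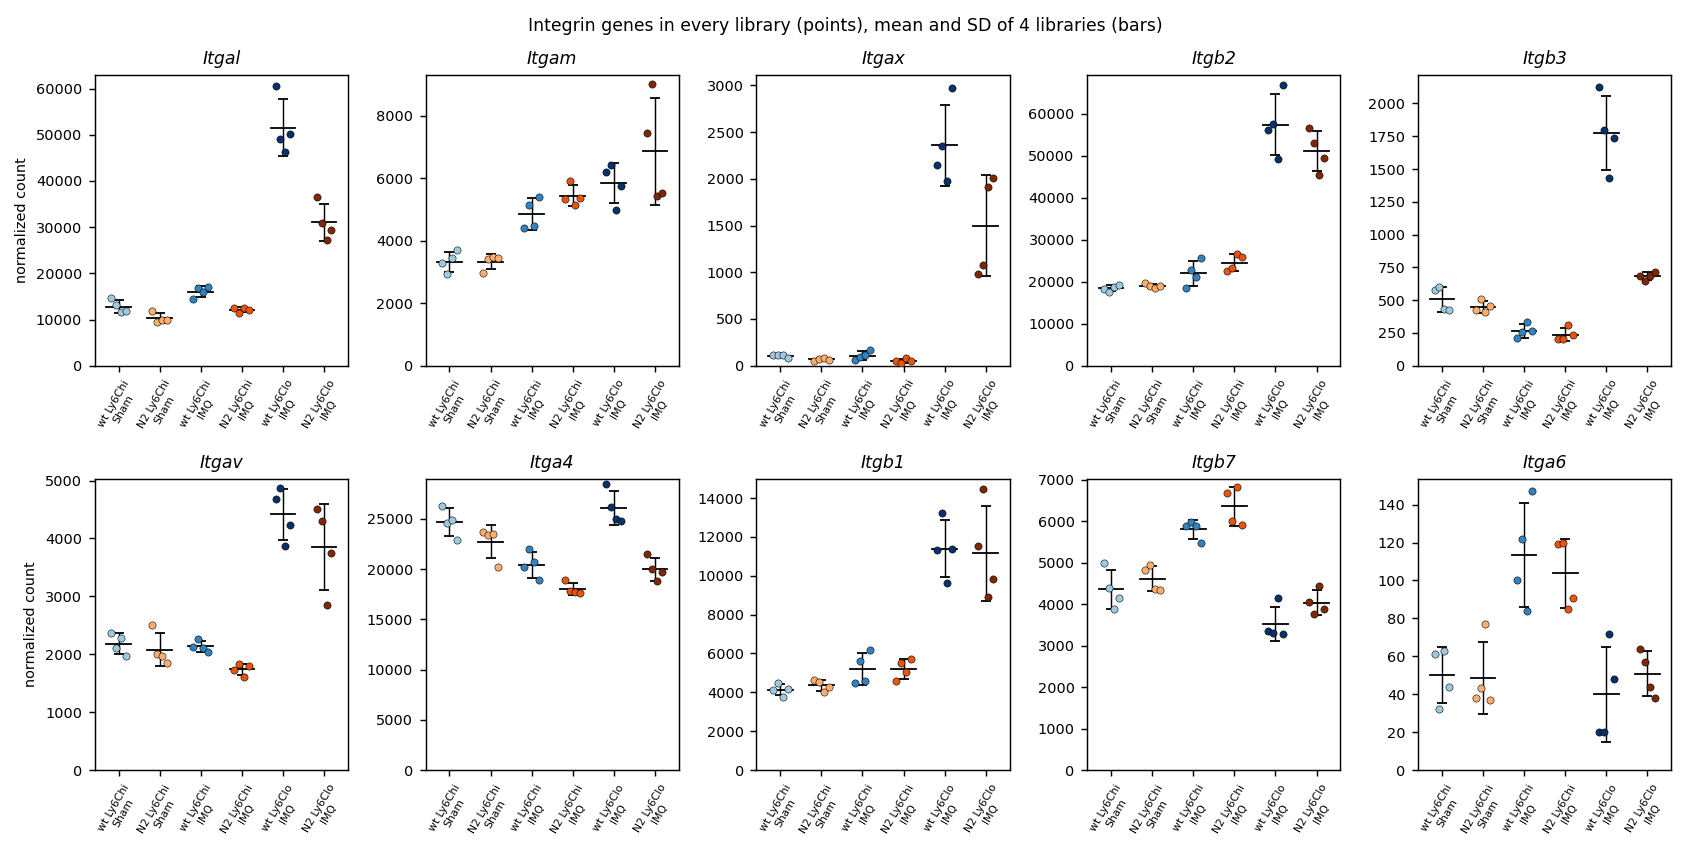
Normalized count (y axis, linear from 0) of each of the 10 integrin genes in the 24 libraries, by group on the x axis (N2 stands for N2ΔMy). Points are libraries and bars are the mean and SD of 4; Itgal, Itgax, Itgb2, Itgb3, Itgav and Itgb1 stand highest in the Ly6Clo groups, and Itgb3 falls from 1432 to 2124 in wt Ly6Clo cells to 647 to 716 in N2ΔMy Ly6Clo cells.

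The wt subsets of IMQ-treated mice were compared to see which integrin genes set Ly6Clo monocytes apart. A gene was called when limma gave it a p, adjusted by Benjamini and Hochberg over all genes tested, of at most 0.05 and a log2 fold change of at least 0.6 in size. In wt cells 8 of 10 members were called, 6 higher and 2 lower in Ly6Clo cells, against 24.6% of all genes (11.9% higher and 12.7% lower). The higher genes were Itgax, Itgb3, Itgal, Itgb2, Itgb1 and Itgav, and the lower ones Itga6 and Itgb7. The median log2 fold change of the 10 was 1.09, against -0.01 over all genes tested. The libraries of 9 members did not overlap between the groups, as for 35.4% of all genes.

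Among the beta 2 integrin genes, Itgax had normalized counts of 2145, 2350, 1973 and 2969 in replicates 1 to 4 of wt Ly6Clo cells and of 60, 92, 114 and 167 in wt Ly6Chi cells. Its lowest Ly6Clo library was more than 10 times its highest Ly6Chi library, and the log2 fold change was 4.51 ± 0.26 (SE, adjusted p = 9.1e-07), or 22.8-fold. Itgal had 60471, 49154, 46334 and 50258 in wt Ly6Clo cells and 14432, 16756, 15995 and 16987 in wt Ly6Chi cells, a log2 fold change of 1.68 ± 0.12 (adjusted p = 2.1e-06). Itgb2, the shared partner, had 56065, 57500, 49303 and 66924 against 18635, 22819, 21159 and 25726, a log2 fold change of 1.38 ± 0.14 (adjusted p = 2.4e-05). For all 3 genes every Ly6Clo library lay above every Ly6Chi library. Itgam, by contrast, had 6211, 6414, 4976 and 5751 against 4404, 5155, 4464 and 5397. These groups overlapped, and its log2 fold change of 0.26 ± 0.11 was not called (adjusted p = 0.0825).

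Itgb3 had 2124, 1798, 1432 and 1740 in wt Ly6Clo cells and 208, 254, 337 and 262 in wt Ly6Chi cells. It was 6.70-fold higher, with a log2 fold change of 2.74 ± 0.16 (adjusted p = 9.3e-07), and the groups lay far apart. Its alpha partner Itgav had 4675, 4866, 3875 and 4238 against 2124, 2259, 2109 and 2045, which was 2.06-fold higher (log2 fold change 1.04 ± 0.09, adjusted p = 1.1e-05). Itgb3 is also the beta chain of the platelet fibrinogen receptor, and platelets cling to monocytes. The summed normalized count of 12 platelet markers was 158 to 401 in wt Ly6Clo and 96 to 237 in wt Ly6Chi libraries. The platelet chemokine gene Pf4 was at 12 to 53 and at 5 to 32, and Itga2b, the platelet alpha partner of Itgb3, at 69 to 128 and at 20 to 71. The part of these markers in the Itgb3 value was not tested. With each of the 8 libraries left out in turn, its log2 fold change was 2.63 to 2.87.

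Itgb1 and Itgb7, the 2 beta subunits that can pair with Itga4, differed in opposite directions. Itgb1 had 11335, 13247, 9611 and 11404 in wt Ly6Clo cells and 4468, 5597, 4596 and 6195 in wt Ly6Chi cells, a log2 fold change of 1.13 ± 0.13 (adjusted p = 7.7e-05). Itgb7 had 3354, 3316, 4154 and 3272 against 5883, 5994, 5886 and 5471, a log2 fold change of -0.73 ± 0.10 (adjusted p = 0.00018). Neither pair of groups overlapped. Itga4 had 28424, 26158, 24948 and 24812 against 20154, 22022, 20659 and 18871. It was 1.28-fold higher with no overlap, at an adjusted p of 0.017 but below the fold required (log2 fold change 0.35 ± 0.10). Itga6 had 20, 20, 72 and 48 against 100, 122, 84 and 147, low values throughout, with a log2 fold change of -1.66 ± 0.41 (adjusted p = 0.00915). That call was lost when genes of every level were tested (adjusted p = 0.0714) and within the second series (-0.91, adjusted p = 0.163). The other 7 calls held within each series alone.

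The same 8 genes were called in the same directions between the N2ΔMy subsets, against 17.4% of all genes (9.01% higher and 8.38% lower). Itgax had 982, 1081, 1915 and 2008 in N2ΔMy Ly6Clo cells and 46, 28, 82 and 48 in N2ΔMy Ly6Chi cells, a log2 fold change of 4.87 ± 0.33. The 2 libraries of the first series lay below the 2 of the second, and all were far above the Ly6Chi cells. In the same comparison 5 of 8 dendritic cell markers and 6 of 8 macrophage markers tested were called higher. Of those called, only 2 in each list reached the filter in both groups, and Siglech, Mertk, C1qa, C1qc and Cd5l passed it only through N2ΔMy Ly6Clo cells, so much of both counts was built in. The part of these markers in the Itgax value was not tested. Itgb3 had 682, 647, 687 and 716 against 204, 200, 309 and 236, a log2 fold change of 1.54 ± 0.15. The 4 other genes called higher had log2 fold changes of 1.35 (Itgal), 1.12 (Itgav), 1.08 (Itgb1) and 1.06 (Itgb2), and Itga6 and Itgb7 had -1.03 and -0.66. The adjusted p-values of these 8 were 2.1e-06 to 0.0109, and all 8 calls held within each library series. The median of the 10 members was 1.07, against -0.0051 over all genes. Itgam (0.30 ± 0.16) and Itga4 (0.15 ± 0.10) were not called, with overlapping libraries. The other 8 members did not overlap, as for 27.8% of all genes.

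**Figure D2:**
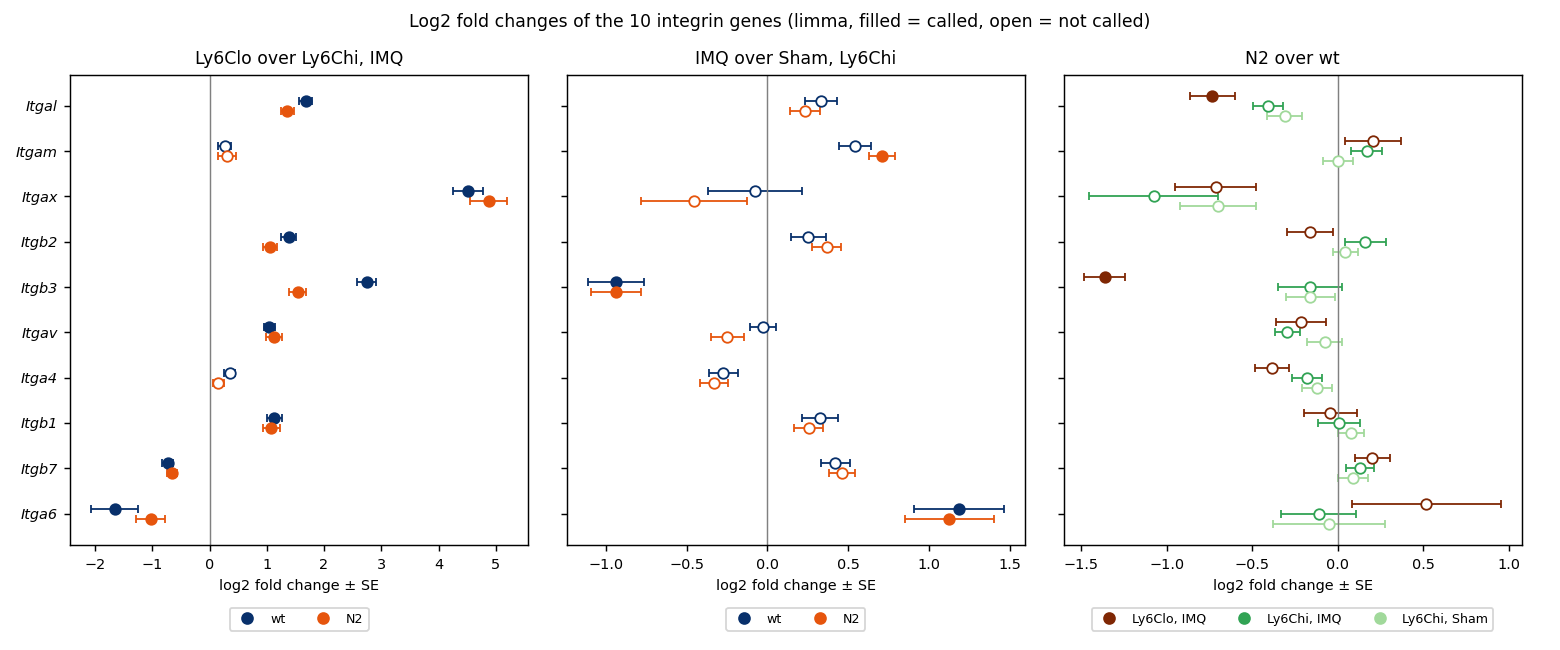
Log2 fold change (x axis) of the 10 integrin genes (y axis) with its SE from limma, for Ly6Clo over Ly6Chi cells, IMQ over Sham, and N2ΔMy (N2) over wt; filled points passed both thresholds and open points did not. The subset differences reach 4.87, and the only filled points for N2ΔMy over wt are Itgb3 (-1.36) and Itgal (-0.73) in Ly6Clo cells.

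IMQ and Sham were compared within Ly6Chi cells, so these values share their IMQ libraries with the subset comparison. In wt cells 2 of 10 members were called, Itga6 higher and Itgb3 lower, against 9.49% of all genes (4.43% higher and 5.07% lower). In N2ΔMy cells 3 were called, Itga6 and Itgam higher and Itgb3 lower, against 8.7% (4.15% higher and 4.55% lower). Members at an adjusted p of at most 0.05, whatever their fold, numbered 5 in wt and 6 in N2ΔMy cells. The libraries of 5 and 7 members did not overlap, as for 21.5% and 19.5% of all genes. No member was called in limma for a response that differed between genotypes (interaction, 0 of 10, with 0 at an unadjusted p under 0.05), and 0% of all genes were. The median log2 fold change of the members was 0.29 in wt and 0.24 in N2ΔMy cells, against 0.014 and 0.0052 over all genes.

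Itgb3 had 574, 603, 430 and 423 in Ly6Chi cells of Sham-treated wt mice, all above the IMQ libraries at 208 to 337. It was 1.91-fold lower after IMQ (log2 fold change -0.94 ± 0.18, adjusted p = 0.00488). In N2ΔMy cells the Sham libraries had 428, 509, 408 and 452, above 200 to 309 after IMQ, and the log2 fold change was also -0.94 (± 0.16, adjusted p = 0.00331). Within the first and the second library series alone, the wt log2 fold change was -1.35 and -0.52, and the second was not called (adjusted p = 0.163). In N2ΔMy cells it was -1.20 and -0.67, the second again not called (adjusted p = 0.0661). The platelet markers summed to 45 to 128 in Sham and 96 to 237 in IMQ libraries of wt cells, with overlap. In N2ΔMy cells they summed to 40 to 101 and 117 to 221. Of 4 platelet markers tested, 0 were called in wt cells and 1 was called higher in N2ΔMy cells. That gene, Ppbp, reached the filter in neither of the groups compared. The 10 dendritic cell markers moved with Itgb3, from sums of 7916 to 16983 down to 2616 to 4555 in wt and from 11203 to 19261 down to 3078 to 5322 in N2ΔMy cells, with 6 of 8 tested called lower in each genotype. Of these 6, 5 in wt and 4 in N2ΔMy cells reached the filter in both groups. The 11 macrophage markers summed to 4182 to 5145 with Sham and 2375 to 3141 with IMQ in wt cells, and to 3875 to 5893 and 3448 to 4342, with overlap, in N2ΔMy cells. Siglec1 and Mrc1 were called lower in both genotypes, and 2 others higher in N2ΔMy cells. The part of these markers in the Itgb3 value was not tested.

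Itgam had 3274, 2925, 3439 and 3690 in Sham-treated wt cells and 4404, 5155, 4464 and 5397 after IMQ, without overlap. The log2 fold change of 0.54 ± 0.10 had an adjusted p of 0.00428 and stayed under the fold required. In N2ΔMy cells it had 2978, 3429, 3472 and 3456 with Sham and 5343, 5924, 5139 and 5356 with IMQ, a called log2 fold change of 0.71 ± 0.08 (adjusted p = 0.00043). Within the 2 series it was 0.62 and 0.46 in wt and 0.82 and 0.599 in N2ΔMy cells, so that the N2ΔMy call was lost in the second series by its size, while the wt value passed both thresholds in the first series alone (adjusted p = 0.0166). The difference between genotypes in this response was 0.16 ± 0.13 (adjusted p = 1). Neutrophils carry much CD11b, and the sort is set to leave them out, since it took CD115+ cells and its Lin antibodies include one to Ly6G. The summed count of 10 neutrophil markers was 708 to 1388 in the Sham and 3108 to 8605 in the Ly6Chi IMQ libraries. Of the 5 neutrophil markers tested, 3 were called higher in wt and 4 in N2ΔMy cells, but only 1 of those called reached the filter in both groups in either genotype. S100a8 and S100a9, at most 12 in the Sham libraries, did not reach it there, so their difference was built in. A low level of Ly6g was built in by the antibody to Ly6G, and it was at most 1 in every library, Sham included. The part of these markers in the Itgam value was not tested.

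Itga6 had 61, 32, 63 and 44 in Sham-treated wt cells and 100, 122, 84 and 147 after IMQ, a log2 fold change of 1.18 ± 0.28 (adjusted p = 0.0162). In N2ΔMy cells it had 38, 43, 77 and 37 with Sham and 119, 120, 85 and 91 with IMQ, a log2 fold change of 1.12 ± 0.28 (adjusted p = 0.0232). These groups did not overlap, but the values are low. The wt call was lost without wt Ly6Chi IMQ replicate 2 or 4 (adjusted p = 0.0527 each), and the N2ΔMy call without Sham replicate 1, 2 or 4 or IMQ replicate 1 or 2 (adjusted p = 0.0607 to 0.0668). Both calls were lost when genes of every level were tested (adjusted p = 0.0737 in wt and 0.0862 in N2ΔMy cells). Within the 2 series the log2 fold change was 1.30 and 1.06 in wt and 1.54 and 0.71 in N2ΔMy cells, and of these the 1.54 was called. Itgb7 had a log2 fold change of 0.42 in wt and 0.46 in N2ΔMy cells, and Itgal of 0.33 in wt cells, all at an adjusted p under 0.05 and under the fold required. Itga4 (-0.33) and Itgb2 (0.37) passed the p in N2ΔMy cells in the same way. Itgav, Itgax and Itgb1 passed neither threshold in either genotype.

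Among IMQ-treated Ly6Clo cells, N2ΔMy and wt mice were compared to see which integrin genes depend on the Notch2 genotype. There 2 of 10 members were called, Itgb3 and Itgal, both lower in N2ΔMy cells, against 4.78% of all genes (3.12% higher and 1.67% lower). The wt libraries here are those of the subset comparison, and the N2ΔMy libraries likewise. The median log2 fold change of the members was -0.19, against -0.0035 over all genes. With Itga4, 3 members did not overlap, as for 12.8% of all genes. Itgb3 had 682, 647, 687 and 716 in N2ΔMy and 2124, 1798, 1432 and 1740 in wt cells. The N2ΔMy libraries lay close together and all below the lowest wt library, and the gene was 2.57-fold lower (log2 fold change -1.36 ± 0.12, adjusted p = 0.00016). Itgal had 36536, 30962, 27247 and 29437 against 60471, 49154, 46334 and 50258. It was 1.66-fold lower with no overlap (log2 fold change -0.73 ± 0.13, adjusted p = 0.00894), and it lost its call when genes of every level were tested (adjusted p = 0.152). Within each library series alone, Itgb3 had -1.56 and -1.17 (adjusted p = 0.0018 and 0.010) and Itgal -0.70 and -0.77 (adjusted p = 0.0484 and 0.0516).

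Itgax had 982, 1081, 1915 and 2008 in N2ΔMy and 2145, 2350, 1973 and 2969 in wt Ly6Clo cells, which overlapped through the second series. Its log2 fold change of -0.71 ± 0.24 was not called (adjusted p = 0.118), but it was with the replicate number as a block (adjusted p = 0.0088). The block raised the share of all genes called to 8.36%. Within the first series it was -1.12 (adjusted p = 0.0038) and within the second -0.30 (adjusted p = 0.522). CD11c also marks dendritic cells, which carry MHC-II and which the MHC-II- gate is set to leave out. The summed count of 10 dendritic cell markers was 5057, 5572, 33983 and 17125 in the N2ΔMy libraries and 1965, 2494, 5213 and 704 in the wt libraries. It was thus highest in the 2 N2ΔMy libraries with more Itgax. The largest values of this list in N2ΔMy Ly6Clo cells were those of Cd74 (up to 18001) and of the MHC-II genes H2-Ab1 (8158) and H2-Aa (6134). Flt3 and Zbtb46 came next, at up to 850 and 460. The part of these markers in the Itgax value was not tested.

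Itga4 had 21526, 19969, 18766 and 19669 in N2ΔMy against 28424, 26158, 24948 and 24812 in wt Ly6Clo cells, without overlap. It passed the p but not the fold (log2 fold change -0.38 ± 0.10, adjusted p = 0.0432). The other 6 members, Itgam, Itgav, Itgb1, Itgb2, Itgb7 and Itga6, had overlapping libraries and log2 fold changes of -0.21 to 0.52 (adjusted p = 0.318 to 0.927). The low gene Itga6 turned, at 1.55 within the first series and -0.51 within the second, called in neither. Itgam was at 7446, 9014, 5437 and 5538 in N2ΔMy and 4976 to 6414 in wt cells, and Itgb2 at 45405 to 56655 and 49303 to 66924. The alpha subunit Itgal was thus lower while its beta partner was not called.

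Markers of both monocyte subsets moved with the genotype in the Ly6Clo gate. The 6 Ly6Chi markers summed to 9395 to 13906 in N2ΔMy and 1903 to 4227 in wt Ly6Clo libraries, and 4 of 6 were called higher. The 7 Ly6Clo markers summed to 63011 to 78804 and 112324 to 136132, with 4 called lower and 1 higher, and 11 macrophage markers to 8095 to 12063 and 3975 to 6167. Of 8 macrophage markers tested 7 were called higher, but 4 of them, Mertk, C1qa, C1qc and Cd5l, passed the filter only through N2ΔMy Ly6Clo cells, so their difference was built in, and only 1 of the 7 reached the filter in both groups. The platelet markers, at 152 to 215 and 158 to 401, overlapped. The part of these markers in the Itgb3 and Itgal values was not tested.

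In Ly6Chi cells no member was called between genotypes. After IMQ 0 of 10 passed in limma (3 at an unadjusted p under 0.05), against 0.0267% of all genes, and in Sham-treated mice 0 of 10 (2 at an unadjusted p under 0.05), against 0.0178%. The libraries of 2 members did not overlap after IMQ and of 1 in Sham-treated mice, as for 3.84% and 3.15% of all genes. Itgal had 12430, 11307, 12536 and 12058 in N2ΔMy and 14432, 16756, 15995 and 16987 in wt Ly6Chi cells after IMQ, without overlap (log2 fold change -0.41 ± 0.09, adjusted p = 0.381). In Sham-treated mice it had 11945, 9359, 9948 and 9988 against 14611, 13042, 11560 and 11913 (-0.31 ± 0.10, adjusted p = 0.921), and 1 N2ΔMy library overlapped the wt range. Itgax was at 46, 28, 82 and 48 against 60, 92, 114 and 167 after IMQ (-1.08 ± 0.38, adjusted p = 0.67) and at 50, 74, 80 and 62 against 115, 116, 117 and 84 in Sham-treated mice (-0.70 ± 0.22, adjusted p = 0.921). Itgav was at 1607 to 1833 against 2045 to 2259 after IMQ (-0.30 ± 0.07, adjusted p = 0.488). Itgb3 had -0.16 in both treatments, with SEs of 0.19 and 0.14.

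The difference of the genotype effect between subsets was tested over the 16 IMQ libraries, as an interaction called at an adjusted p of at most 0.05. It was called for 1 of 10 members, Itgb3, against 1.06% of all genes. For Itgb3 the log2 fold change between genotypes in Ly6Clo cells minus that in Ly6Chi cells was -1.20 ± 0.22 (adjusted p = 0.0119), and the call was kept without each of the 16 libraries in turn but lost when genes of every level were tested (0 members called). For Itgal the difference was -0.33 ± 0.15 (adjusted p = 0.581), so a larger effect in Ly6Clo cells was not shown for it. The other 8 members had differences of -0.32 to 0.63 (adjusted p = 0.717 to 0.999).

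The alpha genes that pair with Itgb2 shifted in their proportions. As a share of the summed value per kilobase of Itgal, Itgam, Itgax and Itgad, Itgal made up 82.4% ± 1.7 (SD, n = 4) in wt Ly6Clo, 73.7% ± 2.8 in N2ΔMy Ly6Clo, 71.2% ± 1.1 in wt Ly6Chi and 62.7% ± 2.4 in N2ΔMy Ly6Chi cells after IMQ. Itgam made up 12.2% ± 1.1, 21.2% ± 3.7, 28.1% ± 1.1 and 36.9% ± 2.5 of the same cells. Itgax made up 5.20% ± 1.0 and 5.05% ± 2.3 in the Ly6Clo groups and at most 0.987% in any Ly6Chi library. In Ly6Chi cells of Sham-treated mice Itgal was at 73.8% ± 3.3 in wt and 69.7% ± 3.6 in N2ΔMy mice.

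**Figure D3:**
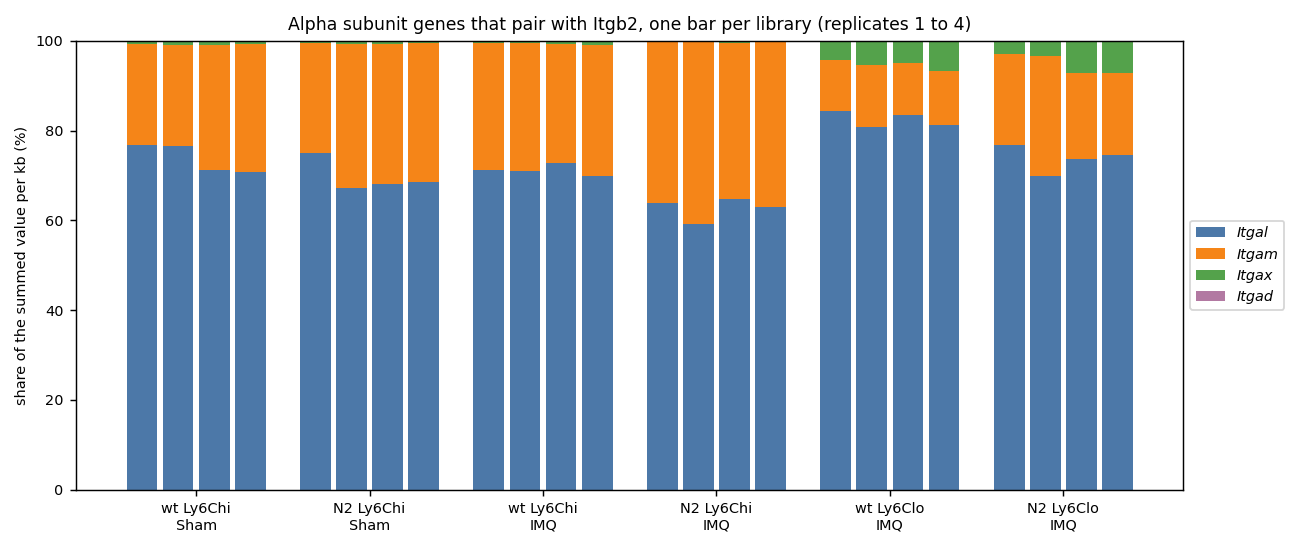
Share (%, y axis) of the summed normalized count per kilobase that each alpha subunit gene of the beta 2 integrins holds, with 1 bar for each of the 24 libraries by group (N2 stands for N2ΔMy). The green Itgax segment is visible in the Ly6Clo libraries, and the Itgal segment is 80.8 to 84.4% in wt Ly6Clo libraries and 69.9 to 76.7% in N2ΔMy Ly6Clo libraries; Itgad is at most 0.153%.

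The log2 ratio of Itgal to Itgam was tested by a two-sided exact permutation test of 4 against 4 libraries, whose smallest p is 0.0286, in 7 comparisons together with that of Itgax to Itgam. At that smallest p, 8 of the 14 tests had an adjusted p of 0.05. The ratio of Itgal to Itgam was higher in Ly6Clo than in Ly6Chi cells by 1.41 in wt and 1.05 in N2ΔMy mice, with all 4 libraries above all 4 others. It was lower in N2ΔMy than in wt cells by a log2 difference of -0.94 in Ly6Clo and -0.58 in Ly6Chi cells after IMQ, in 4 of 4 libraries each, and in N2ΔMy Ly6Chi cells lower after IMQ by -0.47. In Sham-treated Ly6Chi cells the genotypes differed by -0.31 (exact p = 0.171), and IMQ in wt cells by -0.21 (exact p = 0.229), with overlap. The ratio of Itgax to Itgam was higher in Ly6Clo cells by 4.25 and 4.57 and lower after IMQ in N2ΔMy cells by -1.16. Its 4 other differences had exact p-values of 0.0571 to 0.114.

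The beta subunit genes were also set against each other per kilobase, as a description chosen after the values were seen and not tested. The ratio of Itgb1 to Itgb7 was 0.463 to 0.769 in the 16 Ly6Chi libraries, 1.57 to 2.71 in wt Ly6Clo and 1.35 to 2.61 in N2ΔMy Ly6Clo libraries. Itgb7 thus had the higher level per kilobase in all Ly6Chi libraries and Itgb1 in all Ly6Clo libraries. The ratio of Itgb3 to Itgav was 0.673 to 0.827 in wt Ly6Clo libraries and 0.274 to 0.440 in N2ΔMy Ly6Clo libraries, where it lay in the range of the Ly6Chi libraries (0.178 to 0.520).

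**Figure D4:**
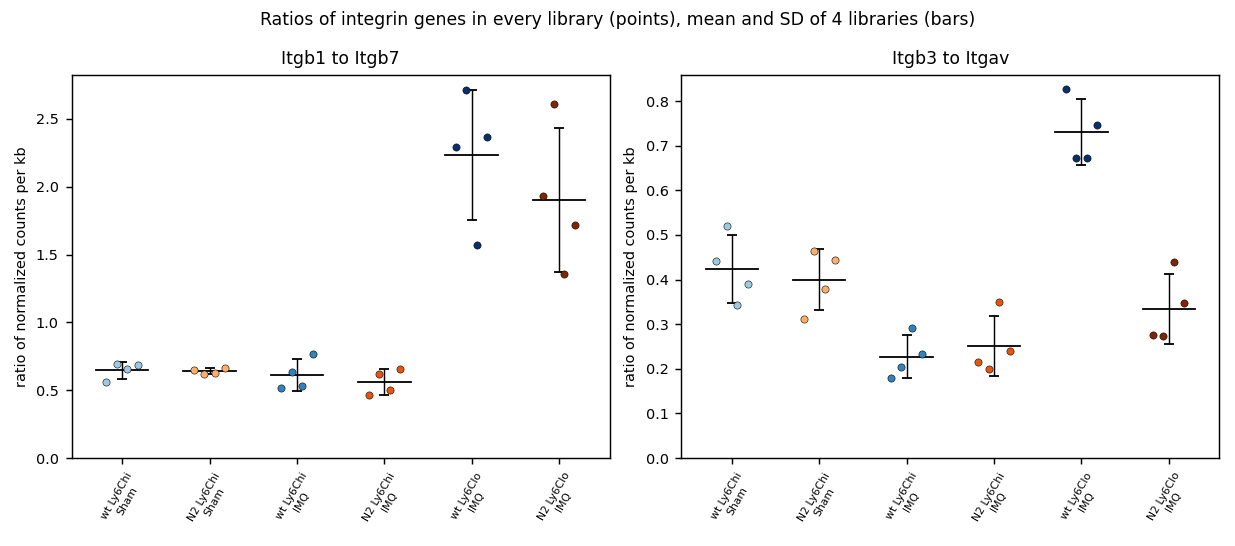
Ratio of normalized counts per kilobase (y axis, from 0) of Itgb1 to Itgb7 and of Itgb3 to Itgav in the 24 libraries, by group on the x axis (N2 stands for N2ΔMy), with the mean and SD of 4 libraries as bars. Itgb1 to Itgb7 is above 1 only in the Ly6Clo libraries, and Itgb3 to Itgav is 0.673 to 0.827 in wt Ly6Clo libraries and at most 0.520 elsewhere.

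Of the 16 other integrin subunit genes 8 passed the filter. Of these, Itgad and Itga3 reached a count of 50 only in wt Ly6Clo cells, Itga9 only in the Ly6Clo groups and Itga8 only in the Sham groups, so a difference with those groups was built into their test, and their values are a description. Of the 4 others, Itgb5 was called higher in wt Ly6Clo than in wt Ly6Chi cells and Itga1 and Itga5 lower (11.9% and 12.7% of all genes were), while Itga2b was not called. Itgad (CD11d), the fourth partner of Itgb2, was at 58, 43, 28 and 65 in wt Ly6Clo cells and at 0 to 2 in every Ly6Chi library. Itga1, a collagen receptor chain, was at 36, 51, 32 and 35 against 1094, 766, 1175 and 788 (log2 fold change -4.59 ± 0.20). Itgb5, another partner of Itgav, was at 3005, 2932, 2686 and 3177 against 1444 to 1951 (0.83 ± 0.11), and Itga5, the fibronectin receptor chain, at 1085, 1005, 1311 and 1041 against 2140 to 2323 (-1.02 ± 0.10). Itga9 and Itga3 were at 96 to 194 and 35 to 61 in wt Ly6Clo libraries. In N2ΔMy cells Itgb5 was called higher and Itga1 lower. Itga8 was at 123 to 207 in Sham-treated and 2 to 13 in IMQ-treated wt Ly6Chi cells. Between genotypes in Ly6Clo cells only Itga5 of these 8 was called (4.78% of all genes were), at 1827, 1727, 1661 and 1765 in N2ΔMy cells, 0.66 ± 0.10 higher on the log2 scale (adjusted p = 0.0035).

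Genes that switch integrins on and carry their signals are read against the 24.6% of all genes called between the wt subsets (11.9% higher and 12.7% lower). Of 14 inside-out activators tested 3 were called higher in Ly6Clo cells, Rassf5 (1.05 on the log2 scale), which links Rap1 to LFA-1, Fyb (0.99) and Rap1b (0.77), and 1 lower, the talin gene Tln2, which reached the filter only in the Ly6Chi IMQ groups. Of 7 inhibitors 2 were called higher, Rap1gap2 (1.66), which turns Rap1 off, and Dok1 (1.13). Of 14 genes of adhesion sites and outside-in signalling 4 were called higher, with the kinase genes Fyn (1.98) and Ptk2b (1.30) largest, and Parvb lower (-2.65). Of 8 membrane partners 4 were called higher, among them the tetraspanins Cd9 (3.47), Cd82 (2.73) and Cd81 (1.84).

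Of 9 genes for integrin ligands tested, 6 were called lower in wt Ly6Clo cells and 1 higher, against 12.7% and 11.9% of all genes; Spp1, among the lower, reached the filter only in the Ly6Chi IMQ groups and Cdh1, the higher, only in the Ly6Clo groups. Fibronectin (Fn1), a ligand of VLA-4 and of Itgav pairs, had the largest difference, at 3957, 2158, 4325 and 3163 in wt Ly6Clo and 109248 to 137785 in wt Ly6Chi cells (log2 fold change -5.29). Thbs1 followed (-3.97). In N2ΔMy Ly6Clo cells Fn1 was at 57919, 30795, 26927 and 33841, all above wt, a log2 fold change of 3.44 (adjusted p = 7.1e-05), and its interaction was called at 2.97. Of 7 other adhesion genes, Pecam1 (5.80), Spn (1.95), whose product CD43 was a gate antigen, and Ceacam1 were called higher between the wt subsets. Pecam1 (-0.76) and Spn (-0.63) were called lower in N2ΔMy than in wt Ly6Clo cells, where 4.78% of all genes were called. The remaining calls between genotypes in Ly6Clo cells were Cd82 (-1.01), Cd151 (0.67), Parvb (1.63), Thbs1 (2.23, with overlap) and Rapgef1 (-0.62), and none of the 7 inhibitors was called.

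After IMQ, the related genes called in Ly6Chi cells of both genotypes, where 9.49% and 8.7% of all genes were called, included Fyn (1.66 in wt and 1.09 in N2ΔMy cells), Parvg (1.07 and 1.17) and Mfge8 (-0.77 and -0.90). Tln2, Cd81, F11r, Spp1 and Tns1 were also called, but none of the first 4 reached the filter in the Sham groups, nor Tns1 in the Ly6Chi IMQ groups, so their difference was built in. F11r, which encodes the LFA-1 ligand JAM-A, was at most 36 in the Sham libraries and reached 525 in wt and 472 in N2ΔMy IMQ libraries, and Spp1, which encodes osteopontin, a ligand of the vitronectin receptor, was at most 6 and reached 65 and 62. In wt cells Cd9, Ceacam1 and Spn were also called higher and Parvb lower. No gene of the 7 related lists was called between genotypes in Ly6Chi cells.

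The genes whose levels were most like a member's over the 24 libraries are given by Pearson's r of log2 values, as a description, since the 24 libraries form 6 groups and share their scaling. Itgal was most like Arhgap27 at 0.984, then Cblb and Cyth3. Itgb2 was most like Cd300d (0.987), then the Fc receptor gene Fcgr4, and Serpinb6a. Itgax was most like Heg1 (0.980), Itgam like the spectrin gene Sptbn1 (0.957) and the phosphatase gene Ptpn1 (0.953), and Itgav like Ptk2b (0.968). Itgb3 was most like Map4k3 (0.964), Themis2 and Rnf144a, and Itgb1 like the GTPase gene Rab10 (0.987). The highest values of the other members were lower, at 0.916 for Itga4 with Mbp, 0.923 for Itgb7 with Dhrs7 and 0.857 for Itga6 with RP23-110C17.2. Among the members, Itgb1 and Itgb2 were the most alike (0.975), Itgal had 0.942 with Itgax and 0.666 with Itgam, and Itgb3 and Itgb7 ran opposite (-0.867).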

How the data were processed

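RNA of sorted monocytes was made into libraries with the SMARTer Stranded Total RNA-Seq Pico v2 kit and read as 75-base single reads. Per the labels and the study's methods, reads were trimmed with Trim Galore 0.4.4, aligned with STAR 2.5.3a to GRCm38.p6 with GENCODE M17 genes and normalized in DESeq2. The authors deposited DESeq2-normalized counts rounded to whole numbers, treated here as a score and not as raw counts; their base means, fold changes and p-values were not used. Whether counting used strand is not given in the sources used here; no gene overlapping a member in span exceeded a value of 98. Read totals were inferred from the spacing of the values.

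Genes that reached 50 in any library were tested on log2(value + 1), so fold changes of low genes are understated, with limma 3.58.1 (R 4.3.3, eBayes with trend) on the 8 libraries compared. The fit was tested on simulated data. Members, lists and tests were chosen with earlier results of these data known. The genes named are all 10 members, all other integrin subunits tested and, per list and comparison, called genes with the largest differences, at most 3 of them without overlap; further genes named were chosen after their values were seen. Same-number libraries deviated together in all 7 comparisons, the lowest correlation of a pair being 0.16, so a fit with the number as a block was added; the pairing comes from the data and from the 2 library series. Pseudocounts, filters, scaling, blocks and left-out libraries were the alternatives.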

Additional observations from a re-analysis of the deposited data

Results flagged for a closer look

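In 5 of 60 sets of 4 libraries (10 genes in 6 groups), 1 library stood apart from the other 3 by Dixon's test, which chance alone flags in about 1 of 20 sets. Itga4 was at 20226 in replicate 4 of Ly6Chi cells of Sham-treated N2ΔMy mice, and at 23428 to 23636 in the others. Itga6 was at 77 in replicate 3 of that group, with 37 to 43 in the others, and Itgam at 2978 in replicate 1, with 3429 to 3472. Itgax was at 84 in replicate 4 of Ly6Chi cells of Sham-treated wt mice, with 115 to 117 in the others. Itgb7 was at 4154 in replicate 3 of wt Ly6Clo cells, with 3272 to 3354.

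The difference between genotypes in Itgb3 itself differed between the subsets, by a log2 difference of -1.20 in the interaction test of limma (adjusted p = 0.0119). With no filter on low values it was not called.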

How the results depend on the processing

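Over the alternatives other than a single library series, the log2 fold change of Itgb3 between genotypes was -1.46 to -1.27 (adjusted p = 1.7e-06 to 0.00762) and that of Itgal -0.81 to -0.65 (adjusted p = 2.9e-05 to 0.152). With no filter, 1 member was called for IMQ in wt cells, 1 between genotypes in Ly6Clo cells and 0 in the interaction of genotype and subset, where Itgb3 lost its call, and Itga6 also lost its call for IMQ in N2ΔMy cells (1.12, adjusted p = 0.0862); many more genes of low value then entered the fit. Without single libraries, the members called for IMQ in wt cells numbered 1 to 2. The tests of alpha ratios with an adjusted p of 0.05 numbered 0 to 9, the exact test being unable to reach it once a group has fewer libraries, and 0 under the sign flip of same-number differences (replicate block), whose smallest p is larger. The replicate block changed the call of Itgax between genotypes in Ly6Clo cells, given above, and no other call of a member.

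The signs that turned were all of uncalled log2 fold changes. Within 1 library series they were 0.47 for Itgax with IMQ in wt cells; 0.074 for Itgb1 and -0.51 for Itga6 between genotypes in Ly6Clo cells; 0.11 for Itga6 between genotypes in Ly6Chi cells after IMQ; and, between genotypes in Sham-treated mice, 0.021 for Itga6, -0.040 for Itgam, -0.020 for Itgb2 and 0.0099 for Itgb3. With equal sums, Itgam had -0.0146 there. Over single libraries left out, the ranges that crossed 0 were -0.077 to 0.011 (Itgav) and -0.32 to 0.17 (Itgax) for IMQ in wt cells, -0.18 to 0.057 (Itgb1) between genotypes in Ly6Clo cells, -0.063 to 0.094 (Itgb1) and -0.24 to 0.024 (Itga6) in Ly6Chi cells after IMQ, and -0.29 to 0.073 (Itga6) and -0.058 to 0.056 (Itgam) in Sham-treated mice. The cause was not tested. Low values of Itga6 and of Itgax in Ly6Chi cells limit their precision.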
